A study of Mus musculus with 4 samples.

Results

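A set of 1849 genomic regions, 2.28% of 80929, carried an accessibility peak in both CuNZ@Gel libraries and in neither Gel library. They were found by joining the 4 deposited peak lists wherever peaks touched or lay at most 1 base apart, and by keeping the joined regions with a peak from each CuNZ@Gel list and none from a Gel list. The presence of peaks therefore chose these regions. Their higher values in CuNZ@Gel follow from that choice and are given as a description, without a test. The cells were RAW264.7, a mouse macrophage-like line, and the assay was ATAC-seq, which reads out open chromatin, in 2 libraries titled Gel and 2 titled CuNZ@Gel. Per the labels, 1000000 cells were seeded per well of a 12-well plate and kept for 48 h after treatment began. CuNZ@Gel is named in the series title as a sprayable nanozyme hydrogel. The treatment text is identical for all samples and mentions CuNZ@Gel alone, so the contents of the Gel wells are known from titles only. No label says whether replicates came from separate cultures, and the spread between them may be technical.

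In ATAC-seq a transposase places sequencing adapters into DNA that is not wrapped tightly in nucleosomes, so reads pile up at promoters, enhancers and other sites held open by bound proteins. A peak is a place where the pile-up exceeds the local background by a threshold set in the caller, and a peak absent from a list is not proof of closed chromatin. Macrophages change mostly their distal elements when their environment changes, while promoters of housekeeping genes are open in most states. In a bulk sample, more cells with an open site and a wider opening in each cell cannot be told apart.

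The libraries differed in depth and in signal over background along the same line as the groups. Reads in regions, recovered from the deposited values, were 18843224 and 17914655 in Gel and 7441516 and 10235259 in CuNZ@Gel. The peak lists held 61757 and 59251 peaks in Gel and 42612 and 53273 in CuNZ@Gel. The background pileup of each library is an inferred value, worked out here from the weak peaks of its list. In Gel 50.1% and 46.6% of the weak peaks lay at that value, but in CuNZ@Gel 9.53% and 13.0%. Its support is therefore weaker in CuNZ@Gel. Divided by this pileup, the region reads (in units of 1000000) came to 18.8 and 18.6 for Gel but to 6.37 and 8.52 for CuNZ@Gel. That gap cannot be told apart from the group difference. Of 12 macrophage markers 11 had a region, and Tyrobp had none. Summed over the macrophage markers, RPM (reads scaled to 1000000 effective reads) was 1465 and 1480 in Gel and 1162 and 1173 in CuNZ@Gel. Markers of other cells had regions too: 7 of 13 fibroblast genes, summing to 90.2 to 90.9 RPM in Gel and 107 to 114 RPM in CuNZ@Gel, and 13 of 16 lymphocyte genes, with 323 to 325 RPM in Gel and 329 to 340 RPM in CuNZ@Gel. Dendritic cell and granulocyte markers (11 of 15 with a region) summed to 337 to 343 RPM in Gel and 306 to 323 RPM in CuNZ@Gel, and markers of unrelated tissues (12 of 20) to 249 to 261 RPM and 241 to 261 RPM. The part of these levels in the results was not tested.

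The CuNZ@Gel-only regions were low in both Gel libraries without being empty there. Values are the deposited log2(RPM + 1), and a difference is the mean of CuNZ@Gel minus the mean of Gel on that scale. The median value was 1.30 and 1.31 in the Gel libraries and 2.94 and 2.89 in the CuNZ@Gel libraries, which correspond to 1.46, 1.48, 6.67 and 6.40 RPM. In reads the medians were 25 and 24 in Gel and 55 and 72 in CuNZ@Gel. A count of 0 reads occurred in 7 regions in Gel replicate 1 and in 3 in Gel replicate 2, and in none in CuNZ@Gel. Gm25519 was the one region at 0 reads in both Gel libraries, with 1.30 and 1.28 in the CuNZ@Gel libraries. Both CuNZ@Gel values lay above both Gel values in 1815 of the 1849 regions, where 34.5% of all 80929 regions had that order and 33.1% the opposite one. Nothing is read from this count, since the peak calls rest on the same reads.

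**Figure D1:**
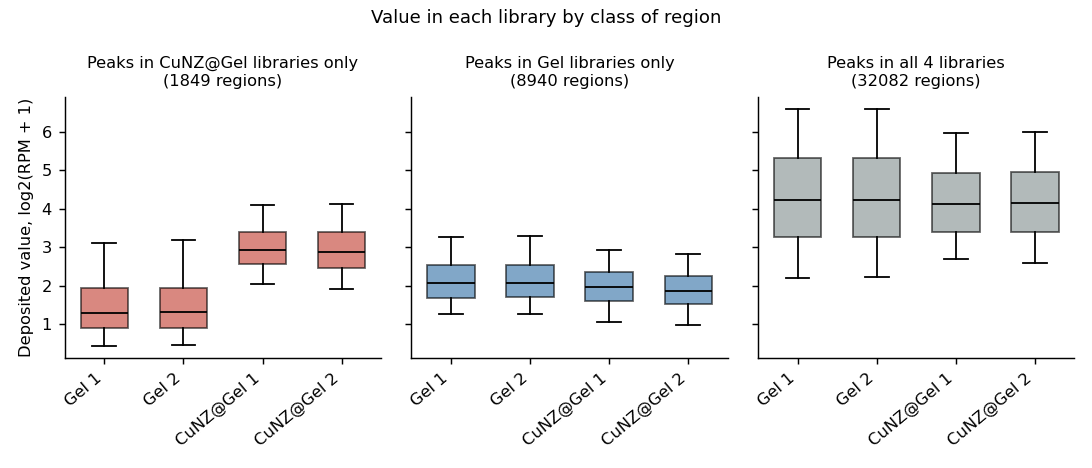
Deposited log2(RPM + 1) per region (y axis) in each of the 4 libraries (x axis), for regions with peaks only in CuNZ@Gel (1849), only in Gel (8940) and in all 4 libraries (32082). Boxes span the quartiles with the median as a line, and whiskers run from the 5th to the 95th percentile. The CuNZ@Gel-only regions have medians of 1.30 and 1.31 in Gel and 2.94 and 2.89 in CuNZ@Gel, while Gel-only regions differ little between the groups.

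On the deposited scaling, the 2 exclusive classes were not mirror images. In the 8940 regions with peaks only in both Gel libraries, the median difference was -0.20, against 1.51 in the CuNZ@Gel-only regions and -0.22 in regions with peaks in all 4 libraries. Gel-only regions had median values of 2.07 and 2.08 in Gel and still 1.97 and 1.87 in CuNZ@Gel. Of the CuNZ@Gel-only regions, 410 (22.2%) reached or passed 2.07 in mean Gel value, the Gel median of the Gel-only class, so their Gel signal was as high as that of typical Gel peaks of that class although no Gel peak was listed. Those 410 had a median difference of 0.85, and the other 1439 one of 1.64. These medians are on the deposited scaling, and those of the Gel-only class are not given on any other. The contrast between the 2 classes is therefore described on that scaling alone. The CuNZ@Gel-only median was 1.33 after cyclic loess (which removes the trend of difference with level), 1.71 on library totals and 0.76 on the background pileup, where the median of all tested regions moved to -0.81 and 281 of the 1849 regions were at 0 or below.

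Differences spread widely within the class. They ran from -0.48 to 3.47 with quartiles of 1.09 and 1.87. A difference of at least 2 was found in 325 regions (17.6%), out of 567 such regions in the whole series. At the other end, 116 regions had differences under 0.5 and 13 were at 0 or less. The lowest lay nearest Klf13, a Kruppel-like transcription factor gene, with 3.96 and 3.97 in Gel and 3.56 and 3.42 in CuNZ@Gel. The region nearest Bcl2l11, which encodes the pro-apoptotic protein BIM, had 4.68 and 4.55 in Gel and 4.64 and 4.12 in CuNZ@Gel. At Klf13 both Gel values were above both CuNZ@Gel values, and at Bcl2l11 the groups overlapped, although the peaks were listed in CuNZ@Gel alone. The median absolute gap between replicates was 0.19 in CuNZ@Gel and 0.21 in Gel, and 1700 regions had CuNZ@Gel replicates within 0.5 of each other. Klf13 and Bcl2l11 were chosen here after their values were seen.

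**Figure D2:**
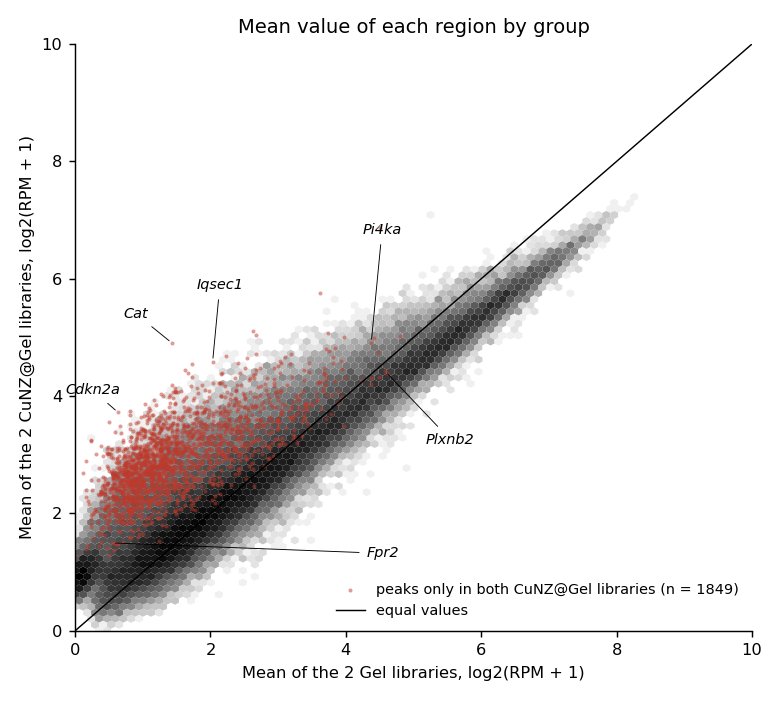
Mean log2(RPM + 1) of each region in the 2 Gel libraries (x axis) and in the 2 CuNZ@Gel libraries (y axis). Grey hexagons are all regions (darker for more regions, log shading), red points the 1849 CuNZ@Gel-only regions and the line equal values. Cat and Cdkn2a are far above the line, and Pi4ka and Plxnb2 lie near it at high Gel values.

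The edge of the rule can be seen in its weakest members. Every peak list stops at a -log10 q of 1.30, the authors' limit. Just inside lay a region nearest D130040H23Rik (chr8:69721334-69721617), with -log10 q of 4.33 and 1.33 in the CuNZ@Gel lists and values of 1.95 and 2.18 in Gel and 2.29 and 2.30 in CuNZ@Gel. Next came Gm26803, with -log10 q of 3.18 and 1.33 and values of 1.79, 1.69, 2.80 and 2.35, and a region of Oca2 (chr7:55820545-55820872), whose smaller -log10 q was 1.34, with values of 0, 0.32, 1.67 and 1.11. Just outside were regions with a peak in both CuNZ@Gel libraries and a single weak Gel peak, each with a Gel -log10 q of 1.31. They lay nearest Gm36746 (2.11 and 1.63 in Gel, 2.64 and 3.14 in CuNZ@Gel), Parp14 (1.26 and 1.35, then 2.66 and 2.27) and Gm34049 (1.58 and 1.48, then 3.26 and 3.27). The values on the 2 sides of the edge overlap. A further 701 regions had peaks in both CuNZ@Gel libraries and Gel replicate 2, and 886 in both and Gel replicate 1.

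As peaks, the CuNZ@Gel-only regions were weak and narrow. Their median fold enrichment, the authors' ratio of pile-up over local background, was 4.61 in CuNZ@Gel replicate 1 and 5.14 in replicate 2. These medians sat at the 29.5th and 35.7th percentile of the respective list, where regions with peaks in all 4 libraries sat at the 61.3rd and 68.1st. In the strongest 10% of each list there were 0 CuNZ@Gel-only regions in replicate 1 and 12 in replicate 2. Median width was 368 bases (quartiles 283 and 489, range 162 to 1777), against 437 bases in Gel-only regions and 831 bases where all 4 libraries had a peak. Regions with a peak in a single CuNZ@Gel library were narrower still, at 200 and 215 bases. Wider members differed more. In 4 groups of nearly equal size from the narrowest to the widest, the median difference was 1.33, 1.49, 1.51 and 1.71. The median CuNZ@Gel value was 2.69, 2.83, 2.90 and 3.22 in these groups. The width of a member is set by its CuNZ@Gel peaks, whose reads also enter the difference. The relation therefore follows in part from how the class was made, and nothing more is read from it.

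The 2 CuNZ@Gel libraries placed these peaks at nearly the same base. The distance between the summits of the strongest peak in each library had a median of 40 bases (quartiles 19 and 80), and 80.8% were within 100 bases, close to the median of 38 bases and 81.0% in regions with peaks in all 4 libraries. All but 7 regions held a single peak in each library, 1842 of 1849. Since the rule asks for a peak from both libraries in a narrow joined region, close summits follow in part from it. The rank of the fold enrichment was shared less closely than in the common regions, with a Spearman correlation between the libraries of 0.64 over the 1849 regions and 0.83 over the 32082. These correlations are across regions of the same libraries and carry no test.

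The CuNZ@Gel-only regions were spread over the whole genome. Every autosome and chromosome X held some, and chromosome Y, with 8 regions in all, held none. Chromosome 2 held the most, 152, which is 8.22% of the class against 8.24% of all regions. Chromosome 7 held 138 (7.46% against 6.25% of all regions and 6.03% of Gel-only regions) and chromosome 10 held 110 (5.95% against 5.16%). Chromosome 19 held 45 (2.43% against 3.20%) and chromosome X 26 (1.41% against 1.78%). The remaining 3 were on unplaced scaffolds, one of them the region with the highest CuNZ@Gel values of the class. It lay nearest LOC118568479, with 21.6 ± 0.199 RPM in Gel and 118 ± 36.7 RPM in CuNZ@Gel (mean ± SD, n = 2), but fold enrichments of just 1.47 and 1.42 over its local background.

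Most stood alone. The median distance to the nearest other CuNZ@Gel-only region was 255513 bases, and 28.7% had another within 100 kb. For Gel-only regions the figures were 46960 bases and 73.1%, but that class is larger (8940), and its size sets the spacing. Of 2391 windows of 1 Mb that held any region, 1080 held a CuNZ@Gel-only region, 582 of them a single one and 12 of them 5 or more. Counted along the genome, 109 members stood next to another member with no region of any other class between them, in 50 pairs and 3 runs of 3. One run of 3 comprised a region nearest Nfkb1, which encodes an NF-kappaB subunit (difference 1.23), and 2 nearest Slc39a8, which encodes a zinc importer (1.95 and 1.39). Another joined 3110045C21Rik and 2 regions of Ddr2, a collagen receptor kinase gene (1.99 and 2.23), and the third was made up of 3 regions of Gm52739 on chromosome 4 (1.47, 2.09 and 1.58).

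The densest window lay on chromosome 9 between 40 and 41 Mb, with 7 of its 89 regions. These were 2 nearest Gramd1b, which encodes a sterol transfer protein, 2 nearest Jhy, 1 nearest Crtam, and 2 nearest Ubash3b, which encodes a tyrosine phosphatase of immune signalling. Their differences ran from 0.19 to 2.56. One of the Jhy regions (chr9:40831443-40831847) had 0.37 and 0.58 in Gel and 2.77 and 3.31 in CuNZ@Gel, whereas one of the Gramd1b regions (chr9:40368818-40369058) had 3.18 and 3.28 against 3.30 and 3.54 and turned to -0.76 on the background pileup. Of the 81 other tested regions in the window, limma called 14 higher and 16 lower. Of all tested regions that are not members it called 19.3% higher and 22.4% lower. There were 11 windows with 5 members each. The 4 of them with the fewest other regions were on chromosome 5 from 74 Mb (Gm32064, Scfd2, Lnx1 and Gm15985, 5 of 32 regions), chromosome 1 from 183 Mb (Disp1, Gm34130 and Dusp10, 5 of 35), chromosome 7 from 117 Mb (Xylt1, Gm34762 and Gm40454, 5 of 56) and chromosome 4 from 55 Mb (Gm12514, Gm52739 and Gm12505, 5 of 73).

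Relative to sites open in every library, CuNZ@Gel-only regions lay closer than Gel-only regions. The median distance to the nearest region with peaks in all 4 libraries was 9260 bases for CuNZ@Gel-only and 14122 bases for Gel-only regions. Within 1 kb of such a site were 9.15% against 3.90%, within 5 kb 36.9% against 17.5%, and within 10 kb 51.6% (953 of 1848) against 38.5%. Beyond that the classes converged, with 81.6% and 83.0% within 50 kb. Peaks found in a single library were farther away on the CuNZ@Gel side, with 28.2% (replicate 1) and 35.2% (replicate 2) within 10 kb, and similar to Gel-only regions on the Gel side (34.8% and 36.9%). A region with any Gel peak was within 1 kb of 282 CuNZ@Gel-only regions (15.3%). Distance was not used by the rule, but the peak calls it rests on are made against local background. Whether open sites nearby shaped which peaks were called was not tested. Distances are not replicated across samples, and no test of them was made.

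**Figure D3:**
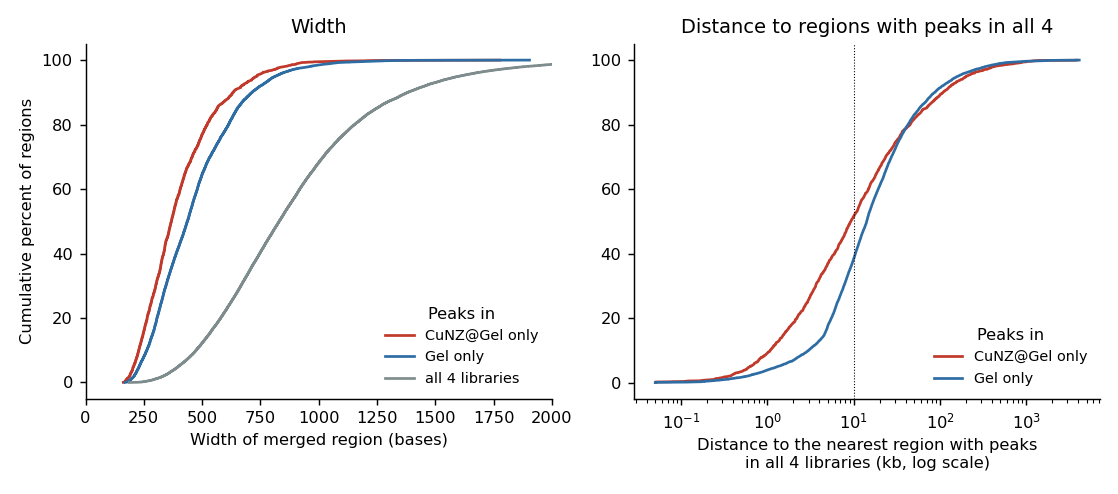
Cumulative percent of regions (y axes) by width in bases (left, the widest regions off the axis) and by distance in kb, on a log axis, to the nearest region with peaks in all 4 libraries (right, distances below 0.05 kb drawn at 0.05). CuNZ@Gel-only regions have a median width of 368 bases against 437 in Gel-only regions, and 51.6% of them against 38.5% of Gel-only regions lie within 10 kb, the dotted line.

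On the deposited scaling, other regions close to a CuNZ@Gel-only region were called higher somewhat more often than all regions that are not members. They were called lower more often too. Other regions were tested with limma on the deposited log2 values of all 77212 regions that passed a filter on low values. The contrast is the one that chose the members, so these counts are read only beside the background, which was 21.1% higher and 21.8% lower in CuNZ@Gel (19.3% and 22.4% with the members left out). Of 2886 other regions within 10 kb of a CuNZ@Gel-only region, 634 were called higher (22.0%) and 784 lower (27.2%), with a median difference of -0.05. Among regions with peaks in all 4 libraries within that distance, 19.6% were called higher and 44.7% lower (1485 tested), against 18.6% and 42.1% for such regions anywhere. Close by, at up to 2 kb, 48.1% of the 362 common regions were called lower and 18.5% higher. Of all 672 other regions tested at that distance, 25.3% were called higher and 28.7% lower. From 2 to 5 kb the shares were 18.8% and 29.6% of 921. The common regions near a member were also somewhat stronger, with a median Gel value of 4.58 against 4.22 in all of them. The excess of lower calls was not seen after cyclic loess, where 13.4% of the neighbours within 10 kb and 13.8% of all regions were called lower. It was present on library totals (14.7% against 11.9%) and on the background pileup (65.8% against 60.5%). After cyclic loess, among called neighbours, the share called higher went from 44.7% to 63.1% (68.8% on library totals and 5.85% on the background pileup). For all regions, members included, that share was 49.1%, and 57.7%, 71.6% and 7.40% on those scalings. With the members left out, 14539 regions were called higher and 16844 lower on the deposited scaling.

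Grouped by nearest gene in place of distance, higher calls exceeded the background and lower calls did not. The 1849 regions were assigned by the authors to 1714 nearest genes, of which 1593 had a single CuNZ@Gel-only region, 108 had 2, 12 had 3 and Oca2 had 4. The 7898 other tested regions of these genes were called higher in 24.1% and lower in 20.2% of cases, against the 19.3% and 22.4% of all regions that are not members themselves. In the subset with peaks in all 4 libraries, 24.7% were called higher and 35.8% lower, against 18.6% and 42.1% for all such regions. Among the called other regions of these genes, the share called higher was 54.4%. It was 63.8% after cyclic loess, 76.1% on library totals and 7.40% on the background pileup. For all regions, members included, these shares were 49.1%, 57.7%, 71.6% and 7.40%. The shares of all regions count the members and those of the other regions of member genes do not. The equal 7.40% on the background pileup thus comes from unlike sets, and no likeness is read from it. The nearest gene is a name only: whether a region falls in an exon, an intron, a UTR or a promoter was not analysed here.

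Cat, the gene of catalase, which breaks down hydrogen peroxide, held both the widest region and the largest difference of the class. The region (chr2:103334945-103336721) spans 1777 bases. Its values were 1.55 and 1.31 in Gel and 4.89 and 4.91 in CuNZ@Gel, or 1.70 ± 0.311 RPM against 28.9 ± 0.293 RPM (mean ± SD, n = 2), a ratio of mean RPM of 17.0. The groups are far apart and the 2 replicates of each are close. Fold enrichments were 6.24 and 8.10. The difference of 3.47 remained at 2.61 on the background pileup. It accounted for 39.7% of all reads near Cat in CuNZ@Gel and 3.17% in Gel. Its neighbours did not share it. The region of Cat with peaks in all 4 libraries (chr2:103314967-103315978) was called lower, with 5.55 and 5.48 in Gel and 5.01 and 5.06 in CuNZ@Gel (difference -0.48 ± 0.10 SE). A narrow region of 158 bases with a peak in CuNZ@Gel replicate 1 alone was called higher (1.75), and the other 2 were not called (0.07 and -0.01).

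Cdkn2a, which encodes the cell cycle inhibitor p16INK4a and the p53 activator ARF, had 3 CuNZ@Gel-only regions. The one with the largest difference (chr4:89173073-89173373) had 0.95 and 0.32 in Gel and 3.87 and 3.58 in CuNZ@Gel. The others had 0.81 and 1.04 against 3.19 and 2.68 (chr4:89168662-89168926) and 0.23 and 0.52 against 2.36 and 2.30 (chr4:89152693-89153057). Their differences of 3.09, 2.01 and 1.95 were 2.40, 1.29 and 1.41 on the background pileup. Of the 4 other regions of this gene limma called 3 higher and 1 lower. The lower one was the strongest, at 5.08 and 5.17 in Gel and 4.77 and 4.84 in CuNZ@Gel.

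**Figure D4:**
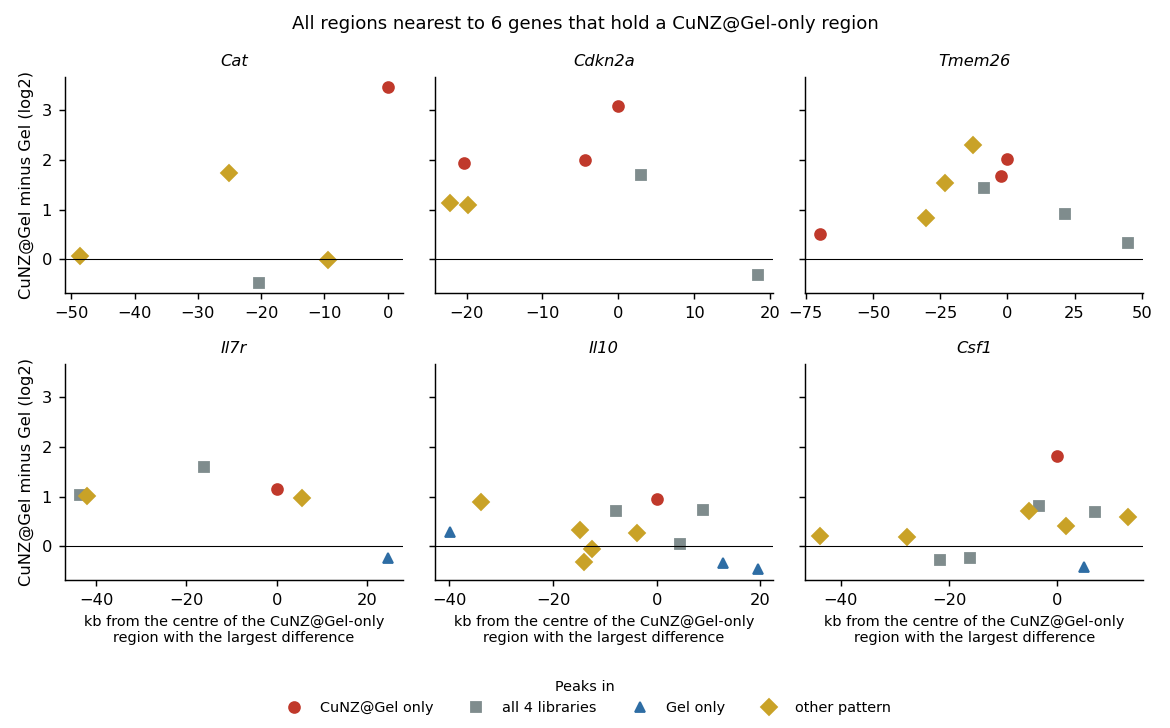
CuNZ@Gel minus Gel on the log2 scale (y axis) for every region nearest to 6 genes, by distance in kb from the centre of the CuNZ@Gel-only region with the largest difference (x axis). Red circles are CuNZ@Gel-only regions, grey squares have peaks in all 4 libraries, blue triangles in Gel only and yellow diamonds another pattern. At Cat the region at 0 stands alone at 3.47, while at Tmem26 and Il7r most other regions are above 0 too.

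Oca2, which encodes a melanosome transporter needed for pigment, had 4 CuNZ@Gel-only regions among its 7 regions, and these held 85.0% of its RPM in CuNZ@Gel and 70.8% in Gel. The strongest (chr7:55796182-55796675) had 1.12 and 1.45 in Gel and 3.75 and 3.49 in CuNZ@Gel. The differences of the 4 were 2.34, 1.23, 1.57 and 2.05. Tmem26, a membrane protein gene, had 3 (0.51, 1.68 and 2.02), the first of which turned to -0.22 on the background pileup. At Tmem26, 5 of the 6 other regions were called higher and none lower. The other genes with 3 were Pde4d, which encodes a cyclic AMP phosphodiesterase, Pla2g4a, which encodes the phospholipase that releases arachidonic acid, Xylt1, an enzyme gene of proteoglycan synthesis, Macroh2a3, Disp1, Myo3b, Kirrel3, Gm52739, Gm53524 and Gm46758. At Pde4d the 3 regions had differences of 1.98, 1.32 and 1.60 among 48 regions in all, and the 44 others tested split into 12 higher and 9 lower. At Xylt1 the 3 regions had 1.13, 0.86 and 0.62, the last 2 of which fell to -0.07 and -0.35 on the background pileup, and 14 of the 25 others were called higher and 2 lower. One Pla2g4a region of 0.35 turned to -0.53 on that scale. At Macroh2a3, 12 of 21 others were called higher and none lower. The regions of Myo3b differed by 2.37, 2.38 and 1.84, and 7 of its 11 other regions were called higher.

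Judged by peak strength, the leading CuNZ@Gel-only regions were near genes of varied function. Ranked by the smaller of the 2 fold enrichments, the first was near Colec12, which encodes a scavenger receptor of the collectin family (9.87, with 2.58 and 2.56 in Gel and 4.20 and 4.36 in CuNZ@Gel). A second region of Colec12 differed by 0.49, and by -0.44 on the background pileup. After it came Gm23517 (9.45), Gm29685 (9.30), Tasp1 (9.27), Iqsec1 (9.21), Spata5 (9.15), AI463229 (9.03), Gm34408 (9.02), 4930431P22Rik (8.97) and Gm39311 (8.76). The region near Iqsec1 (chr6:90678293-90678930), an exchange factor for Arf GTPases, had 1.90 and 2.16 in Gel and 4.58 and 4.59 in CuNZ@Gel, or 3.10 ± 0.512 RPM against 23.0 ± 0.129 RPM. Tasp1, a protease gene, had 1.40 and 1.28 against 3.69 and 3.38 (chr2:139922872-139923377). A strong peak did not always mean a large difference: the region near Spata5 differed by 0.80 and by -0.08 on the background pileup. After Cat and Cdkn2a, the largest differences among genes with a regular symbol were those of Reps1 (2.94), Klhl42 (2.84) and Zdhhc12 (2.82). In each the groups were far apart, for example at Reps1 with 1.04 and 0.58 in Gel and 3.83 and 3.67 in CuNZ@Gel. Among the widest regions, those near Gm23109 (1632 bases), Gm24384 (1210) and Gm23680 (1195) differed by 2.67, 3.06 and 2.29. The region near Pi4ka, a lipid kinase gene, spans 1265 bases and had 4.40 and 4.35 in Gel and 4.85 and 4.97 in CuNZ@Gel, a difference of 0.53 that turned to -0.48 on the background pileup.

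Of 122 regions nearest 30 genes of inflammatory cytokines and activation, 5 (4.10%) were CuNZ@Gel-only, against 2.28% of all regions. They lay nearest Il12b, Il27, Acod1, Fpr2 and Ccl4. Il12b encodes a subunit of interleukin 12, and its region (chr11:44214086-44214474) had 1.08 and 1.16 in Gel and 2.85 and 2.85 in CuNZ@Gel. At Il27, a subunit gene of another cytokine of that family, the values were 2.15 and 1.97 against 3.25 and 3.33. Acod1 encodes the enzyme that makes itaconate, and its region (chr14:103284291-103284496) had 1.43 and 1.38 against 3.15 and 2.94. Both CuNZ@Gel values exceeded both Gel values in all of these, the order that the choice of the class gives to 98.2% of its regions. At Acod1 the other 2 regions were called higher as well (1.06 and 1.54), while at Il12b 1 of 5 others was called lower and none higher. The chemoattractant receptor gene Fpr2 had 0.77 and 0.32 against 1.43 and 1.56. Over the other tested regions of the list, 19 were called higher and 29 lower of 115. For this and the lists and genes below, the background of calls is 19.3% higher and 22.4% lower, as in all tested regions that are not members. The background of each share of CuNZ@Gel-only regions is 2.28%.

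Of 119 regions nearest genes of alternative activation and resolution, 2 (1.68%) were CuNZ@Gel-only, a share near that of all regions. Il10 encodes an anti-inflammatory cytokine, and its region (chr1:130961422-130961769) had 2.28 and 1.92 in Gel and 3.07 and 3.05 in CuNZ@Gel. The groups did not overlap there, and the difference of 0.96 came down to 0.09 on the background pileup. Of the 11 other regions of Il10, 3 were called higher on the deposited scaling, by 0.89, 0.71 and 0.73, and none lower. Calls at single genes are given on that scaling alone. Il4ra, the interleukin 4 receptor gene, had 1.74 and 1.24 against 3.11 and 3.28 at chr7:125138507-125138850, yet 3 of its 6 other regions were called lower and none higher. Cytokine and growth factor receptors held 2 of 194 (1.03%), those of Il7r and Tgfbr1. At Il7r the region (chr15:9571937-9572177) had 1.04 and 0.64 against 2.05 and 1.94, and 4 of the 5 other regions were called higher. At Tgfbr1, a TGF-beta receptor gene, the values were 0.86 and 1.08 against 1.97 and 1.94. Among fixed genes without a CuNZ@Gel-only region were Arg1, Nos2, Il6, Tnf, Mrc1, Nfe2l2, Mt1 and Hmox1. Both regions of Arg1, which encodes arginase, had peaks in all 4 libraries and were called higher. The single regions of the cytokine gene Tnf and the metallothionein gene Mt1 were called lower. At Il6 2 of 5 regions were called lower and none higher, at Nfe2l2 3 of 6 lower and 1 higher, at Nos2 1 of 8 lower and 2 higher, at Hmox1 1 of 9 lower and 3 higher, and at Mrc1 1 of 4 higher and none lower.

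Pattern recognition and inflammasome genes had 2 of 182 regions (1.10%), nearest the receptor-associated kinase genes Irak4 and Irak3, which differed by 1.52 and 1.80. Irak3, whose product restrains Toll-like receptor signalling, had just this region, with 1.71 and 1.31 in Gel and 3.34 and 3.28 in CuNZ@Gel. In the signal-induced transcription factor list 3 of 122 regions (2.46%) were CuNZ@Gel-only, and these were among the smallest differences: Nr4a3 0.30, Maff 0.15 and Dusp1 0.60, which turned to -0.48, -0.79 and -0.39 on the background pileup. The other regions of that list were called lower in 77 and higher in 11 of 118 cases. The unfolded protein and integrated stress response list had 3 of 68 (4.41%), near Eif2ak4 (1.95), Ern1 (1.65) and Xbp1 (0.45, and -0.49 on the background pileup). Of its 64 other regions 30 were called lower and 5 higher, and Gel-only regions made up 11.8% of the list. No region of 47 near housekeeping genes was CuNZ@Gel-only, where few would be found at the overall 2.28%.

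Macrophage lineage genes held 5 of 181 (2.76%), with 2 at Mitf and 1 each at Csf1, Ptprc and Mpeg1. Csf1, the gene of the growth factor that macrophages depend on, had 1.63 and 1.97 in Gel and 3.62 and 3.63 in CuNZ@Gel at chr3:107683611-107683988. Of its 10 other regions 3 were called higher and none lower, including the neighbouring region with peaks in all 4 libraries (0.81). Mitf encodes a transcription factor of lysosome and osteoclast genes. Its 2 regions had 2.64 and 2.85 against 3.79 and 3.95, and 1.86 and 2.27 against 3.05 and 2.96. Of 26 others at Mitf, 12 were called higher and 5 lower. At Mpeg1, which encodes the pore-forming protein perforin-2, the groups overlapped, with 3.16 and 3.27 in Gel and 3.25 and 3.42 in CuNZ@Gel, and the difference of 0.12 turned to -0.83 on the background pileup. The osteoclast list had 5 of 107 (4.67%), with 2 at Clcn7 and 1 each at Car2, Siglec15 and Itgb3. Clcn7 encodes the chloride transporter of lysosomes and of the osteoclast ruffled border, and its regions (chr17:25348294-25348669 and chr17:25355350-25355757) had 1.74 and 2.22 against 4.00 and 3.95, and 1.15 and 1.45 against 2.82 and 3.20. They held 62.6% of the RPM near Clcn7 in CuNZ@Gel and 21.6% in Gel. Car2, a carbonic anhydrase gene, had 1.15 and 0.80 against 2.87 and 2.78, while 2 of its 4 other tested regions were called lower. The region at Itgb3, an integrin gene, differed by 0.47 and by -0.36 on the background pileup.

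In the list of metal handling and antioxidant genes, 6 of 169 regions (3.55%) were CuNZ@Gel-only and 7.69% were Gel-only. Besides Cat, the CuNZ@Gel-only regions lay near Slc40a1, Slc39a14, Prdx1, Atp7a and Fth1. Slc40a1 encodes ferroportin, the cellular iron exporter. Its region (chr1:45946384-45947080) had 0.95 and 1.16 in Gel and 3.05 and 3.04 in CuNZ@Gel, and 3 of its 4 others were called higher. Slc39a14, a zinc and iron importer gene, had 1.88 and 2.42 against 3.48 and 3.42. At Prdx1, a peroxiredoxin gene, the region was the one assigned to it, with 3.59 and 3.18 against 4.46 and 4.44, and the difference of 1.07 was 0.08 on the background pileup. Atp7a, a copper-exporting ATPase gene, and Fth1, the ferritin heavy chain gene, differed by 0.82 and 0.92. The other tested regions of this list were called higher in 40 and lower in 32 of 162 cases, beside 19.3% and 22.4% of all tested regions that are not members. Wound growth factor and matrix genes had 4 of 99 (4.04%), and 11.1% of that list was Gel-only. Plaur encodes the urokinase receptor, and at chr7:24169823-24170077 it had 1.64 ± 0.484 against 11.4 ± 1.25 RPM (mean ± SD, n = 2), with all 3 other regions called higher. Vegfa, which encodes an angiogenic growth factor, had 1.49 ± 0.277 against 6.09 ± 0.821 RPM, while 3 of its 5 others were called lower and 1 higher. Areg, an EGF-family ligand gene, had 1.08 and 0.95 against 2.21 and 2.24.

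**Figure D5:**
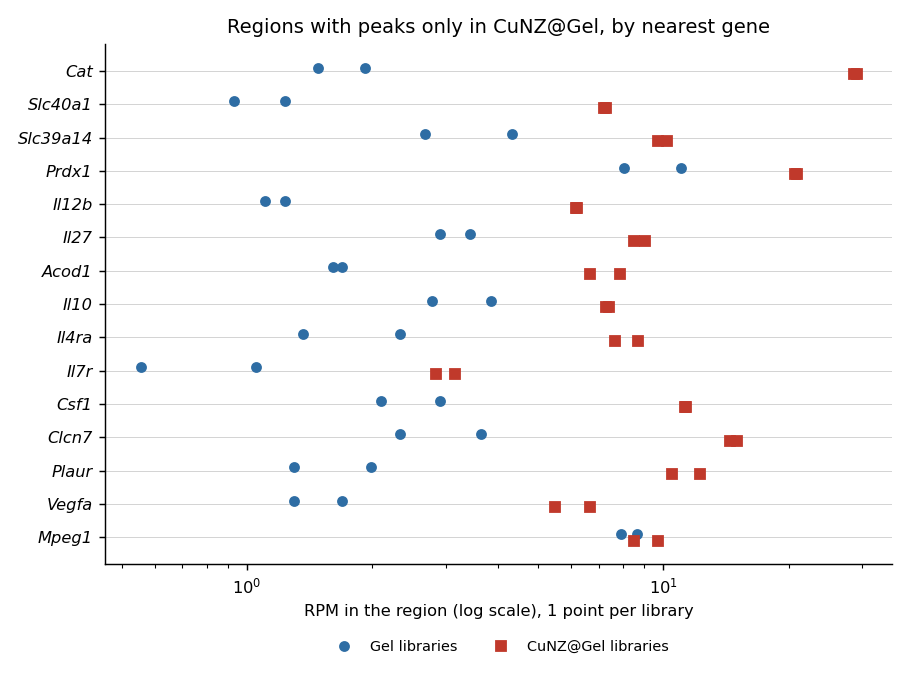
RPM in each library (x axis, log scale) for the CuNZ@Gel-only region nearest 15 genes; where a gene has several, the one with the highest smaller fold enrichment is drawn. Blue circles are the 2 Gel and red squares the 2 CuNZ@Gel libraries. Cat shows the widest gap, from 1.70 to 28.9 RPM on average, and at Mpeg1 the libraries overlap.

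Lists of other cell types held 1 of 21 fibroblast regions (Col3a1, with 0.72 and 0.99 in Gel against 2.29 and 2.47), 0 of 41 lymphocyte regions, 1 of 35 dendritic cell and granulocyte regions (Gata2) and 3 of 32 regions of unrelated tissues (Slc17a6 and 2 of Apoa1). No test of these shares against the 2.28% of all regions was made.

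By family, the make-up of the class was close to that of all regions, with a few families holding a larger share. Predicted genes with a Gm number made up 31.7% of the class against 28.3% of all regions and 30.4% of Gel-only regions. Protein-coding genes made up 59.8%, against 63.0% of all regions, 61.0% of Gel-only regions and 68.5% of those with peaks in all 4 libraries. Small nuclear and small nucleolar RNA genes made up 2.16% and 2.22%, against 1.46% each in all regions and 1.33% and 1.72% in Gel-only regions. Phosphodiesterase genes had 7 regions (0.379% against 0.209% of all and 0.280% of Gel-only regions), from 5 of the 24 genes of that family, and at Pde1b and Pde5a the differences were 1.60 and 1.51. Serpins, mostly protease inhibitors, had 5 regions (0.270% against 0.111% of all and 0.0559% of Gel-only regions). Of these, Serpinb1b had 0.77 and 1.12 in Gel and 3.15 and 3.59 in CuNZ@Gel, and Serpinb1a had 1.46 and 1.42 against 3.28 and 3.34. Interleukin and interleukin receptor genes had 8 (0.433% against 0.336% of all and 0.459% of Gel-only regions), among them Il1rl2, the IL-36 receptor gene, with 2.21 and 1.63 against 4.09 and 4.11.

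Solute carriers had 28 regions (1.51% against 1.48% of all and 1.64% of Gel-only regions), the strongest near Slc39a8, Slc6a21 and Slc36a4 (2.34). C-type lectins had 3 (0.162% against 0.101% of all and 0.145% of Gel-only regions), near Clec4d (1.61), Clec4a4 (1.09) and Clec3a (1.31). Cytochrome P450 genes had 3 (0.162% against 0.153% and 0.134%), near Cyp2g1 (2.39), Cyp11a1 (2.18) and Cyp4f17 (1.15). Semaphorins and plexins had 4 (0.216% against 0.159% of all and 0.157% of Gel-only regions). Sema7a and Sema3e differed by 2.09 and 1.76, but the region near Plxnb2 had 4.58 and 4.59 in Gel and 4.32 and 4.53 in CuNZ@Gel, a difference of -0.16 that was 0.09 after cyclic loess and -1.17 on the background pileup. Collagens had 3 (0.162% against 0.145% of all and 0.179% of Gel-only regions), of which Col6a5 had 2 (1.78 and 1.32). Transmembrane protein genes named Tmem had 16 (0.865% against 0.730% and 0.716%), among them Tmem131 (2.72), Tmem45b (2.34) and Tmem74 (1.21). Vomeronasal receptors had 2 (0.108% against 0.0680% and 0.0895%), Vmn2r90 (2.64) and Vmn2r115 (1.90). No CuNZ@Gel-only region lay nearest a calcium channel gene (of 99 regions), or a GABA receptor, cadherin, contactin, ephrin, keratin, defensin, Sox or Hox gene. Each of those families had 99 regions or fewer, so few members would be found at the overall 2.28%.

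Genes named as microRNAs or their hosts were nearest to 34 CuNZ@Gel-only regions (1.84% against 1.74% of all regions), from 33 genes, and 31 regions (1.68% against 1.62%) had a nearest gene that RefSeq types as a microRNA. MicroRNAs are short RNAs that pair with messenger RNAs chiefly through the seed, bases 2 to 8. Of the 33 genes 27 matched the RefSeq table (GRCm38.p6), with 47 mature sequences and 47 distinct seeds, so no seed was shared. The mature sequences nearest the 3 regions with the highest smaller fold enrichment are shown with those of Mir221, the one microRNA gene with 2 such regions, which was chosen after its values were seen. They are written 5′ to 3′ with the seed in capitals.
mmu-miR-99a-5p: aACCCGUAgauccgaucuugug
mmu-miR-99a-3p: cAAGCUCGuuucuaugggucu
mmu-miR-705: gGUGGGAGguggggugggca
mmu-miR-7656-5p: uGUGGGAUcagauagccuguua
mmu-miR-7656-3p: aCAGGCUGucugaucccacggu
mmu-miR-221-3p: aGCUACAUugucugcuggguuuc
mmu-miR-221-5p: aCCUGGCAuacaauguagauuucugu
The region nearest Mir99a (chr16:77327087-77327624) had 0.77 and 1.04 in Gel and 3.05 and 3.20 in CuNZ@Gel. At Mir705 (chr6:85326122-85326529) the values were 2.55 and 2.46 against 3.99 and 3.94, and at Mir7656 (chr9:94733213-94733915) 0.66 and 1.16 against 2.72 and 3.21. The regions of Mir221 had 0.37 and 0.46 against 2.58 and 2.13 (chrX:18909443-18909760), and 0.86 and 0.80 against 2.18 and 2.62 (chrX:18961662-18962066). In all 5 the groups did not overlap, as in 1815 of the 1849 regions by the choice of the class and in 34.5% of all regions. The microRNAs themselves were not measured here.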

How the data were processed

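ATAC-seq libraries of RAW264.7 cells (2 Gel, 2 CuNZ@Gel, grouped by sample title) were analysed from the files the authors deposited. Build GRCm39 and the tools MACS2 2.2.8, Picard 2.27.5, SAMtools 1.17, Bowtie2 2.3.4.3 and fastp 0.23.1 are named in the submitters' processing notes, and what each did is not given in the sources used here. Deposited by the authors were log2 values for 80929 regions named by nearest gene. Reversed as log2(RPM + 1), 100% of low values were whole reads to a tolerance of 0.1 in all 4 libraries, which implied scaling factors of 0.910 and 0.902 (Gel) and 1.11 and 1.10 (CuNZ@Gel). Each deposited peak list, made from 1 library, gives a fold enrichment (a ratio to local background), a -log10 p-value and a -log10 q-value, and a score derived from the q-value. The folds and q-values are the authors' and served within each list, for ranks, filters and description; the score was not used.

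Joining the lists (gap at most 1 base) gave 80929 regions in the row order of the values: fold enrichment and value correlated at 0.59 to 0.69 across regions, and near 0 when shifted by 1 row. Coordinates are GRCm39, counted from 1. Of 26614 nearest gene names 25127 matched the RefSeq gene table (GRCm38.p6), and 77101 of 77103 regions lay on the chromosome given there; no coordinates were taken from it. The 77212 regions that reached 0.710 RPM, or 10 reads at the median library size, in 2 or more libraries entered limma 3.58.1 (R 4.3.3, intensity trend, group only, two-sided, Benjamini-Hochberg, threshold 0.05). The fit was also run on simulated data. These held no group difference in depth or background, so that run does not bear on the gap between the groups in those. Every CuNZ@Gel-only region passed through its CuNZ@Gel side, so no count rests on passing. A log2 difference on this scale understates changes of low values. Descriptions used Python 3.11.15, pandas 2.3.3, scipy 1.17.1 and matplotlib 3.10.9.

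The members, gene lists and families were chosen with earlier results of these data known. Named were the 10 regions with the highest smaller fold enrichment, the 5 widest, the 3 just inside and 3 just outside the rule, the 15 genes with most members, up to 4 member genes per list, 10 fixed genes, 3 per family with a larger share than in all regions, the 5 densest windows and the 5 largest differences with a regular symbol. Others (Klf13, Bcl2l11, Gm25519, LOC118568479, Nfkb1, Ddr2, Mir221, Ccl4, Atp7a and Fth1) were named after their values were seen. Alternatives covered merging, peak thresholds, distances, scaling, filters, left-out libraries and the replicate number as a block. Region sequence was not analysed here, and 1 gene of the lists is not reported here.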

Additional observations from a re-analysis of the deposited data

How the results depend on the processing

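The number of CuNZ@Gel-only regions lay between 1339 and 1856 under other merging gaps, a required overlap, a minimum distance from Gel peaks and a -log10 q of at least 2 or 5 in every list. It was 933 with a -log10 q of at least 5 in the CuNZ@Gel lists alone, and 3479 with the 42612 strongest peaks of each library, 1470 of which were among the 1849. Leaving out 1 library gave 2569 to 8378 (2755 without Gel replicate 1, 2569 without Gel replicate 2, 8378 without CuNZ@Gel replicate 1 and 5236 without CuNZ@Gel replicate 2), because 1 list fewer has to hold or lack a peak. Median width was 408 bases at a -log10 q of at least 5 in every list, 424 with the strongest peaks and 216 to 380 with a library left out. Those 3 settings gave 23.6%, 46.7% and 37.2% to 64.6% within 100 kb of another member, and 48.1%, 45.7% and 38.3% to 52.2% within 10 kb of a region with peaks in all 4 libraries. At 50 and 500 kb the first share was 17.2% and 68.5%, and at 5 and 50 kb the second was 36.9% and 81.6%. With a library left out, chromosome 7 held 5.90% to 7.20% and Gm genes were nearest to 31.7% to 35.3%.

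The median difference was 1.33 after cyclic loess, 1.71 on library totals, 0.76 on the background pileup and 1.47 to 1.53 with a library left out. Lower calls among all regions numbered 10619 after cyclic loess and 9151 on library totals, and on the background pileup 3730 were higher and 46706 lower. For other regions of member genes these were 1016 and 854, with 376 higher and 4707 lower; for those within 10 kb of a member 387 and 424, with 118 higher and 1899 lower. The background pileup is an inferred value with weaker support in CuNZ@Gel, which limits every result given on that scaling. Beyond the scaling itself, the cause was not tested.

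The replicate number did not pair the samples: replicate deviations of the groups correlated at 0.0146 across regions. With the replicate block, 16676 regions were called higher and 17258 lower, 1965 and 1636 among other regions of member genes and 651 and 794 within 10 kb. The planned comparison of sequence features was not run, since no genome of the files' build was used. Precision is limited by 2 libraries a group and by median reads per member of 25 and 24 in Gel and 55 and 72 in CuNZ@Gel.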
